A study of Mus musculus with 80 samples.

Results

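The 4 Dounce-TRAP libraries were compared with the 4 Cell(+)-TRAP libraries, which are 8 of the 80 libraries of the series, over 14723 tested genes of the 16000 that the table lists. The libraries were taken by the preparation and fraction given in their labels, and every gene with enough counts was kept. Both groups hold RNA bound to tagged ribosomes of unsorted brain cell suspensions, and both suspensions were made in a way meant to keep microglia from responding to the preparation itself. The comparison asks how far the translatomes obtained by these preparations differ.

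All mice had the genotype Cx3cr1(Jung)-cre/Ert2+;NuTRAP+ and were given tamoxifen at 100 mg/kg at about 3 months of age, so no group lacks Cre, the tag or tamoxifen. In these mice a Cre enzyme that tamoxifen activates is made under the control of Cx3cr1, and recombined cells carry GFP on the ribosomal protein L10a. For Dounce-TRAP, brain tissue was ground in a glass Dounce homogenizer at 4 °C without enzymes, and tissue debris and myelin were removed on Percoll. For Cell(+)-TRAP, hemispheres were digested in a warmed papain mix that held actinomycin D and triptolide, which stop transcription, and anisomycin, which stops translation. The inhibitors were present in that heated step alone, and a debris removal step of another kind followed. Ribosomes were pulled down from both suspensions with an antibody to GFP. By the sequencing metrics of the study each group had 2 female and 2 male mice, and no mouse gave a library to both groups. Grinding, temperature, enzymes, inhibitors and debris removal changed together, and an earlier table of the same experiment lacks the Dounce libraries, so these steps and a batch cannot be told apart. By the account of the study, RNA integrity was lower in Dounce-Input than in the enzymatic Inputs, read coverage of Dounce-TRAP leaned more toward the transcript end, and a Dounce suspension took an entire brain. Integrity and coverage cannot be read from gene counts, and their part in the differences below was not tested. Cell(-)-TRAP, the enzymatic suspension without inhibitors from the same mice as Cell(+)-TRAP, and Tissue-TRAP, from hemispheres lysed directly, entered the same fit.

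Translating ribosome affinity purification (TRAP) pulls down tagged ribosomes with the messages they are translating, so it reads the RNA of cells that carry the tag. Cx3cr1, the fractalkine receptor, is made in the brain by microglia and by the macrophages of its borders, and in blood by monocytes. RNA of neurons, glia without the tag and vessels can come down with the beads without being bound to a tagged ribosome, so markers of those cells are read beside the microglial genes. Immediate-early genes and cytokines are switched on quickly in microglia that sense damage, and their messages are read here as signs of activation during preparation.

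Total expected counts per library ranged from 2471428 to 4724563 in Dounce-TRAP and from 11415171 to 12620656 in Cell(+)-TRAP, so low genes were measured less precisely in Dounce-TRAP. In a principal component analysis of the 16 TRAP libraries, the first component held 65.3% of the variance and the second 20.8%. The 4 Dounce-TRAP libraries lay apart from the other 12 on the second component, at -97.7 to -79.0, against 22.5 to 27.8 for Cell(+)-TRAP. The values of the first component were 8.02 to 33.8 in Dounce-TRAP and -91.6 to -71.2 in Cell(+)-TRAP, between the latter and Tissue-TRAP at 135 to 141. Values of single genes are counts per 1000000 counts (CPM) after TMM scaling, which removes differences in depth and in the bulk of the RNA. They are listed for mice 179, 180, 181, and 182 in Dounce-TRAP and for mice 1361, 1362, 156, and 157 in Cell(+)-TRAP.

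A gene was called at an adjusted p under 0.1 in the quasi-likelihood test of edgeR (Benjamini-Hochberg) and a fold change above 2, the thresholds of the study. By this rule 3164 genes were higher in Dounce-TRAP (21.5% of the genes tested) and 1123 were lower (7.63%). The CPM ranges of the 4 and the 4 libraries did not overlap for 6424 genes (43.6%). Log2 fold changes below are Dounce-TRAP minus Cell(+)-TRAP with their standard errors. The median over all genes tested was 0.00. When the libraries were scaled to the microglial markers of the study instead, so that values are relative to microglial RNA, that median moved to 0.41. Under this scaling 4179 genes (28.4%) were higher and 581 (3.95%) were lower, so the higher genes made up 87.8% of the calls in place of 73.8%. On the log2 values deposited by the authors they made up 61.0%.

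**Figure D1:**
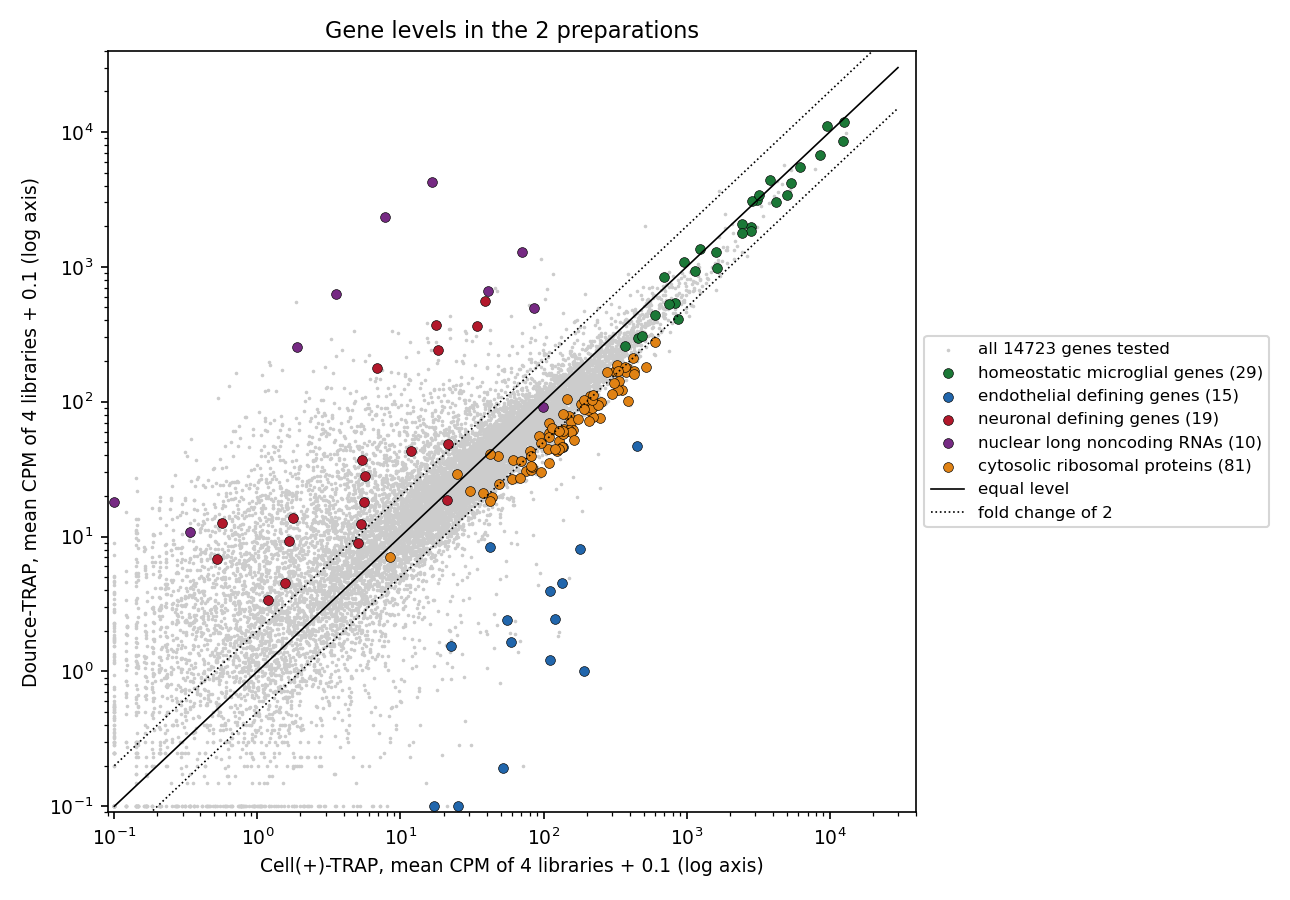
Mean CPM of each of the 14723 tested genes in Dounce-TRAP against Cell(+)-TRAP (both on log axes with 0.1 added, n = 4 libraries per group), with genes of selected lists in color. Homeostatic microglial genes lie along the diagonal at the top right, nuclear long noncoding RNAs and neuronal defining genes lie above it, and endothelial defining genes lie below it.

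Genes that define homeostatic microglia, the resting brain macrophages, gave 1 call between the preparations. Of 29 such genes, none was called higher and 1 was called lower, with a median log2 fold change of -0.36 (median 0.07 when scaled to microglial markers). The same counts of 0 and 1 were found with DESeq2 and with limma, and at an unadjusted p under 0.05 in edgeR 1 gene was higher and 18 were lower. Tmem119, a transmembrane protein that marks microglia, stood at 3257, 2878, 2879, and 3443 CPM in Dounce-TRAP and at 3289, 2616, 3258, and 3257 CPM in Cell(+)-TRAP. P2ry12, the receptor by which microglia sense ADP, stood at 3394, 3167, 2367, and 3293 and at 2965, 2648, 2866, and 2987 CPM. For both genes the libraries of the groups overlapped, and the log2 fold changes were 0.0042 ± 0.12 (95% interval -0.24 to 0.25) for Tmem119 and 0.092 ± 0.12 (95% interval -0.15 to 0.34) for P2ry12. Cx3cr1 itself, whose promoter drives the Cre, stood at 3606, 3215, 2997, and 3797 CPM in Dounce-TRAP and at 3175, 3413, 3040.2, and 3145 CPM in Cell(+)-TRAP, again with overlap.

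Other abundant microglial genes differed between the groups. Csf1r, the receptor for the survival factors CSF1 and IL-34, stood at 9265, 9666, 6237, and 9209 CPM in Dounce-TRAP and at 12469, 13058, 11841, and 12389 CPM in Cell(+)-TRAP. Every Dounce-TRAP library was below every Cell(+)-TRAP library, mouse 181 lowest, with a log2 fold change less than a call needs (-0.53 ± 0.11, adjusted p = 3.67e-04, edgeR), or -0.13 when scaled to microglial markers (adjusted p = 0.189, edgeR). Tyrobp, the adaptor that carries the signal of TREM2, was the homeostatic gene that fell. It stood at 451, 385, 434, and 372 CPM in Dounce-TRAP and at 823, 826, 871, and 956 CPM in Cell(+)-TRAP, without overlap (log2 fold change -1.08 ± 0.10, adjusted p = 8.06e-08, edgeR), and at -0.66 when scaled to microglial markers it was no longer called. In whole suspension RNA (Input), microglia are one cell type among several. There, 28 of the 29 homeostatic genes were lower in Dounce-Input than in Cell(+)-Input, as were 27.9% of all genes tested in Input. The median of the 29 was -1.81 (-0.29 when Input is scaled to microglial markers).

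**Figure D2:**
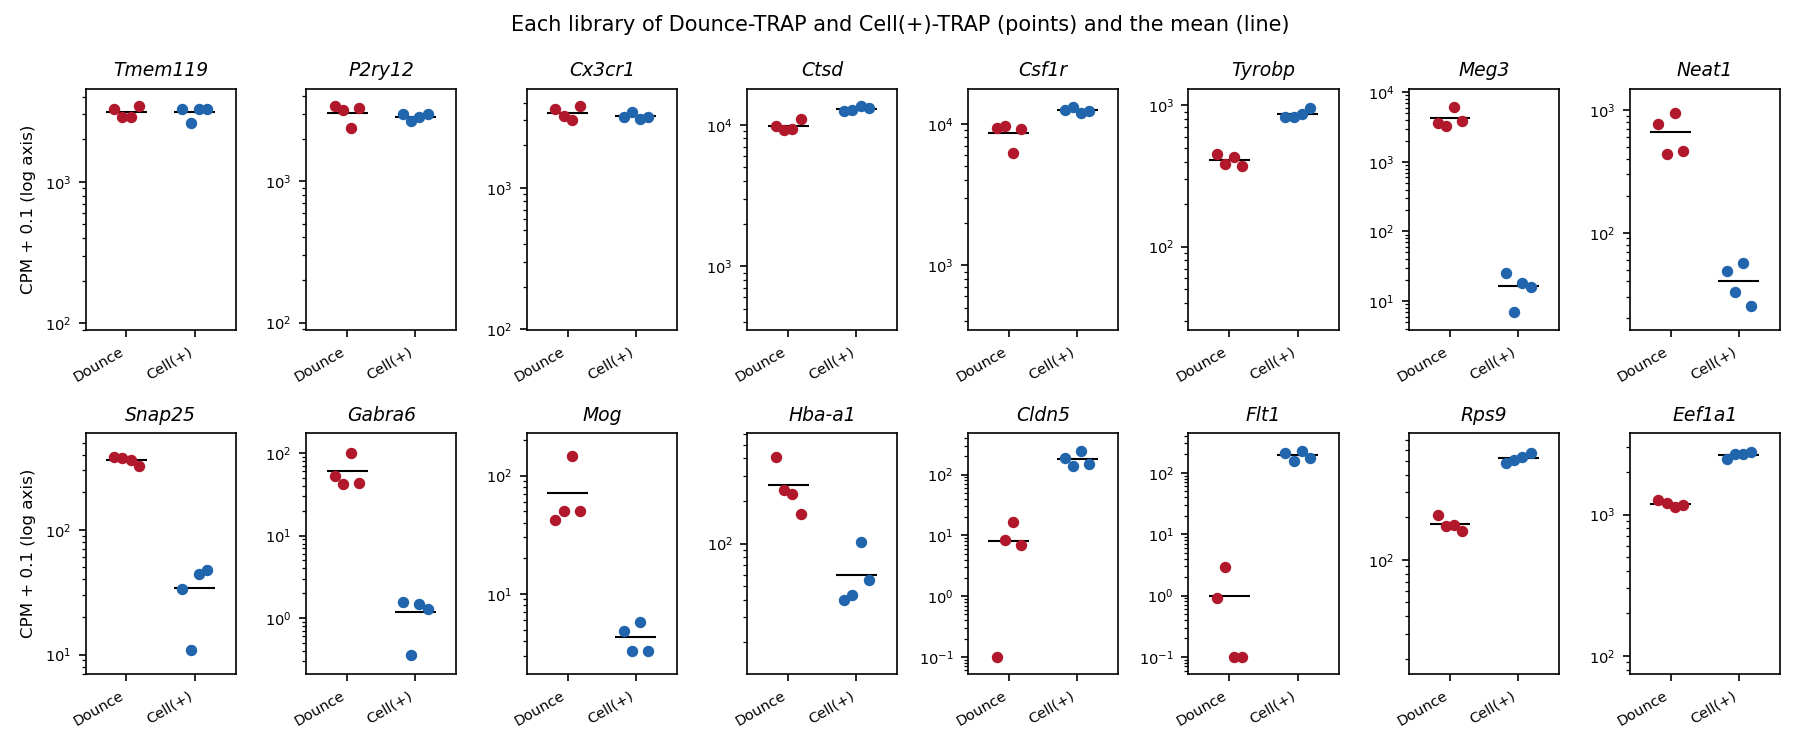
CPM plus 0.1 of 16 genes in each of the 4 Dounce-TRAP and 4 Cell(+)-TRAP libraries (points, log axis) with the group mean (line). The points of Tmem119, P2ry12 and Cx3cr1 overlap between the groups, those of Snap25 and Meg3 are higher in all 4 Dounce-TRAP libraries, and those of Flt1 and Cldn5 are lower in all 4.

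Over the microglial markers of the study, all of which were tested, 3 were higher and 20 were lower, 1.06% and 7.09% of the list. The median was -0.44, and 165 of them did not overlap between the groups, beside 43.6% of all genes. The summed CPM of the list ran from 157288 to 181434 in Dounce-TRAP and from 210330 to 217226 in Cell(+)-TRAP, so these genes took a smaller share of every Dounce-TRAP library. Ccr2, a chemokine receptor of monocytes, and Gm14023 were among the higher markers. Ccr2 was at 22.7, 16.2, 19.8, and 23.2 CPM in Dounce-TRAP and at 10.6, 8.11, 8.26, and 9.75 CPM in Cell(+)-TRAP, without overlap (log2 fold change 1.15 ± 0.25, adjusted p = 7.50e-04, edgeR). The level of Gm14023 was low and overlapped between the groups (3.37 ± 1.47 against 1.37 ± 0.783 CPM, SD, n = 4). Leaving out 1 library ended the call of Gm14023 (without mouse 1361 at 0.97, mouse 157 at 1.23, mouse 180 at 1.11 or mouse 181 at 1.09), where the values are log2 fold changes.

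Among the lower markers, Ucp2, a carrier of the inner mitochondrial membrane, stood at 224, 308, 175, and 245 CPM in Dounce-TRAP and at 675, 859, 766, and 710.1 CPM in Cell(+)-TRAP. The libraries did not overlap, and the log2 fold change was -1.66 ± 0.16 (adjusted p = 9.73e-08, edgeR) and -1.25 when scaled to microglial markers. Crybb1, a lens crystallin that microglia also make, fell by a similar amount, from 336 ± 49.7 to 124 ± 18.9 CPM (SD, n = 4; log2 fold change -1.45 ± 0.16). Col27a1, a fibrillar collagen gene, was at 98.3 ± 18.1 CPM in Dounce-TRAP against 271 ± 26.04 CPM in Cell(+)-TRAP (-1.47 ± 0.13). Lag3, an inhibitory receptor, was at 519 ± 49.5 against 1078 ± 137 CPM (-1.06 ± 0.10). Lag3 is among the markers that lost the call when scaled to microglial markers (-0.63), where 5 of these markers were lower, 6 were higher and the median was -0.024. These are the genes scaled to, so that balance and that median follow from the scaling. It also lay at the fold threshold, the call being lost without mouse 1361 at -0.99 or mouse 180 at -0.99.

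Lysosomal genes, which microglia use to digest what they engulf, were not called in either direction. None of 20 passed the rule in edgeR, DESeq2 or limma, and at an unadjusted p under 0.05 in edgeR 1 was higher and 17 were lower, with a median of -0.49 (-0.064 when scaled to microglial markers). Ctsd, the protease cathepsin D, stood at 9845, 9136, 9304, and 10903 CPM in Dounce-TRAP and at 12484, 12636, 13511, and 13201 CPM in Cell(+)-TRAP. The ranges did not meet, though the log2 fold change was only -0.40 ± 0.078 (adjusted p = 2.61e-04, edgeR). Psap, the precursor of the saposins, read 5355 ± 152 against 7849 ± 409 CPM (SD, n = 4; -0.55 ± 0.07). Of 15 antigen presentation genes, 1 was called, with a median of -0.46 (-0.03 when scaled to microglial markers). That gene was Ciita, the master regulator of MHC class II, at 8.27, 12.2, 2.61, and 9.53 CPM in Dounce-TRAP and at 3.54, 0.863, 2.56, and 3.77 CPM in Cell(+)-TRAP (log2 fold change 1.62 ± 0.48, adjusted p = 0.00834, edgeR). The Dounce-TRAP library of mouse 181 lay within the range of Cell(+)-TRAP. Cd74, the MHC class II invariant chain that Ciita controls, had overlapping ranges, 539 to 817 CPM against 365 to 636 CPM (0.55 ± 0.21). B2m, the light chain of MHC class I, was at 1421 ± 41.9 against 2250.3 ± 118 CPM (-0.66 ± 0.072).

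Endothelial genes had the lowest median of the lists. All 15 genes chosen to define endothelial cells were lower in Dounce-TRAP, with a median log2 fold change of -4.97 (-4.84 with genes near zero counts at their bound). The groups did not overlap for any of these 15 genes, beside 43.6% of all genes. Of the 230 tested endothelial markers of the study, 152 were lower and 5 were higher (66.1% and 2.17%). In these bulk suspensions, fewer cells of a type and less RNA per cell cannot be told apart. Flt1, a receptor for vascular endothelial growth factor, stood at 0.80, 2.795, 0, and 0 CPM in Dounce-TRAP and at 208, 154, 229.8, and 173 CPM in Cell(+)-TRAP. No count of it was seen in 2 of the Dounce-TRAP libraries (log2 fold change -7.39 ± 0.43, adjusted p = 2.41e-10, edgeR). Cldn5, the claudin of blood-brain barrier junctions, stood at 0, 8.19, 16.8, and 6.85 CPM and at 187, 137, 249, and 151 CPM (-4.58 ± 0.50, adjusted p = 5.05e-07, edgeR). The drop was smaller for Slc2a1, the glucose transporter of barrier vessels, at 40.8, 48.9, 44.7, and 52.7 CPM against 441, 394, 559.6, and 416 CPM (-3.27 ± 0.18, adjusted p = 1.85e-10, edgeR). It was smallest of these for Pecam1, an adhesion molecule of endothelium that some leukocytes also carry, at 46.4, 46.7, 35.8, and 54.8 CPM against 159, 113, 146, and 132 CPM (-1.58 ± 0.16, adjusted p = 2.15e-07, edgeR).

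The 15 genes that fell the furthest among those with at least 20 CPM in Cell(+)-TRAP and no overlap were mostly endothelial as well. Sox18 and Emcn, an endothelial transcription factor and the sialomucin endomucin, had 0 counts in all 4 Dounce-TRAP libraries against 1173 and 982 counts in Cell(+)-TRAP. Set against 3 counts per library, Sox18 was at least 29.5-fold and Emcn at least 24.7-fold lower in Dounce-TRAP. Tie1, an orphan receptor kinase of endothelium, had 1 count in Dounce-TRAP and 2417 in Cell(+)-TRAP, a ratio of CPM of 772 with a 95% counting interval of 138 to 30497. For Eltd1, an adhesion receptor of vessels, the ratio was 535 (interval 148 to 4421, 2 counts in Dounce-TRAP), and for Nos3, the endothelial nitric oxide synthase, 83.8 (35.8 to 258, 5 counts). These intervals cover counting error only. The ratio was 228 (63.1 to 1887) for Apcdd1, a Wnt inhibitor of barrier endothelium, and 125 (42.7 to 607) for Wfdc1, a secreted protein with a whey acidic core. The others were Ly6c1, a surface protein of brain endothelium (-6.92 ± 0.56), the semaphorin Sema3g (-6.45 ± 0.61), the chemokine Cxcl12 (-6.05 ± 0.47), the sialomucin Podxl (-5.99 ± 0.46), the membrane protein Itm2a (-5.69 ± 0.37), the caveolar protein Ptrf (-5.65 ± 0.49) and the membrane protein Tm4sf1 (-5.46 ± 0.63), with Flt1 above. Every gene among the 15 was also called lower in Dounce-Input than in Cell(+)-Input, as were 27.9% of all genes tested in Input. Input came from the same suspensions, and the 15 were picked for their large change in TRAP, so this is not an independent check.

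A few endothelial markers went the other way. Itga4, an integrin subunit of leukocytes that is on this list, stood at 52, 108, 51.5, and 69.4 CPM in Dounce-TRAP and at 19.3, 16.8, 14.9, and 16.01 CPM in Cell(+)-TRAP (2.07 ± 0.25, adjusted p = 1.94e-06, edgeR). Ctla2a, a cysteine protease inhibitor, rose by 1.95 ± 0.19 and Maoa, which breaks down monoamines, by 1.59 ± 0.20 on the log2 scale, each without overlap. Stap2, an adaptor protein, was also higher (2.24 ± 0.50), as was Marveld2, a tight junction protein whose libraries overlapped (1.02 ± 0.45). Mural cells, which wrap the vessels, had 4 of 9 genes lower (median -1.41). Rgs5, a regulator of G protein signaling in pericytes, had 2 counts in Dounce-TRAP and 903 in Cell(+)-TRAP, a ratio of 144 (39.8 to 1192). Pdgfrb, the receptor that defines the same cells, was at 7.41 ± 3.27 and 10.4 ± 3.11 CPM (SD, n = 4) with overlapping libraries. Marveld2 was not called without mouse 156 at 0.94, mouse 157 at 0.91, mouse 179 at 0.41 or mouse 182 at 0.88.

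Of 11 genes of the ependyma and choroid plexus, the lining of the ventricles and the tissue that makes cerebrospinal fluid, 9 were lower (median -2.76, or -1.66 with genes near zero counts at their bound). Ttr, the thyroxine carrier that the choroid plexus makes in bulk, stood at 6.67, 35.5, 26.5, and 22.6 CPM in Dounce-TRAP and at 245, 41.1, 468, and 241 CPM in Cell(+)-TRAP. The groups did not overlap, but mouse 1362 of Cell(+)-TRAP came close to the Dounce-TRAP range (-3.43 ± 0.53, adjusted p = 2.86e-05, edgeR). Kl, the aging regulator Klotho, was at 3.2, 0.799, 0.746, and 0.298 CPM against 19.99, 3.797, 31.9, and 15.5 CPM (-3.78 ± 0.61, adjusted p = 4.22e-05, edgeR), with the same Cell(+)-TRAP library lowest. Foxj1, the transcription factor of ciliated cells, overlapped between the groups (3.37 ± 2.33 against 4.46 ± 0.795 CPM, SD, n = 4).

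Neuronal genes were higher in Dounce-TRAP. Of 19 genes chosen to define neurons, 17 were higher, with a median of 2.51, and of the 96 tested neuronal markers of the study 85 were higher and 1 was lower (88.5% and 1.04%, median 2.84). Their summed CPM ran from 5940.3 to 10186 in Dounce-TRAP and from 369 to 795 in Cell(+)-TRAP. Snap25, a SNARE protein of synaptic vesicle release, stood at 383, 374, 366, and 326 CPM in Dounce-TRAP and at 33.2, 10.7, 44.2, and 47.5 CPM in Cell(+)-TRAP. Slc17a7, a vesicular glutamate transporter of excitatory neurons, stood at 333, 277, 618, and 254 CPM and at 25.6, 7.34, 21.6, and 16.2 CPM. No libraries overlapped, and the log2 fold changes were 3.42 ± 0.33 (adjusted p = 1.08e-07, edgeR) for Snap25 and 4.38 ± 0.42 (adjusted p = 1.07e-07, edgeR) for Slc17a7. The difference was smaller for Gad1, which makes GABA in inhibitory neurons, at 43.2, 43.5, 57.4, and 50.02 CPM against 19.7, 7.08, 18.7, and 40.4 CPM (1.17 ± 0.33, adjusted p = 0.00566, edgeR). Camk2a, a kinase of forebrain excitatory neurons (3.84 ± 0.32), Syt1, the calcium sensor of release (3.72 ± 0.35), and Rbfox3, the nuclear antigen NeuN (4.70 ± 0.34), were higher as well. Tissue-TRAP held more of each of these 6 neuronal genes than Dounce-TRAP did, with log2 differences of Dounce-TRAP minus Tissue-TRAP from -3.72 for Gad1 to -1.13 for Rbfox3. Ndnf, a secreted neurotrophic factor, was the neuronal marker that was lower, at low CPM with overlap (2.396 ± 1.86 against 5.74 ± 1.196 CPM, SD, n = 4). Among these genes, leaving out 1 library took Gad1 (without mouse 1362 at 0.88) and Ndnf (without mouse 182 at -0.87) below the fold threshold.

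Genes of the cerebellum and neuropeptides followed. Of 10 cerebellar neuron genes 9 were higher (median 3.15). Gabra6, a GABA receptor subunit of granule cells, stood at 53.3, 42.1, 101, and 43.5 CPM in Dounce-TRAP and at 1.48, 0.259, 1.36, and 1.196 CPM in Cell(+)-TRAP (5.77 ± 0.42, adjusted p = 3.95e-09, edgeR). Cbln3, a cerebellin that granule cells secrete, stood at 164, 127, 370.3, and 156 CPM and at 6.66, 2.76, 5.54, and 3.31 CPM (5.46 ± 0.38, adjusted p = 2.22e-09, edgeR). In both, and in Cbln1, Neurod1 and Zic1, mouse 181, the shallowest library, was the highest of Dounce-TRAP and all 4 Dounce-TRAP libraries were above Cell(+)-TRAP. Of 14 neuropeptide genes 8 were higher, with a median of 4.02 (2.85 with genes near zero counts at their bound). Penk, the precursor of the enkephalins, was at 60.3, 98.2, 202, and 67.9 CPM in Dounce-TRAP and at 2.14, 1.73, 8.52, and 8.65 CPM in Cell(+)-TRAP (4.34 ± 0.47, adjusted p = 4.83e-07, edgeR). Cck, the precursor of cholecystokinin, was at 6.4, 11.4, 40.6, and 6.55 CPM against 0.247, 0.863, 0, and 0.736 CPM (5.05 ± 0.64, adjusted p = 3.04e-06, edgeR), again with mouse 181 well above the rest.

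Long noncoding RNAs held chiefly in the nucleus had the highest median of the lists. Of 10 such RNAs 9 were higher in Dounce-TRAP, with a median of 6.26 (5.76 with genes near zero counts at their bound). Meg3 (chromosome 12, 109540996 to 109571729, plus strand, mm10), an imprinted noncoding RNA of neurons, stood at 3665, 3269, 6102, and 3903 CPM in Dounce-TRAP and at 25.1, 6.904, 17.9, and 16.01 CPM in Cell(+)-TRAP. The lowest Dounce-TRAP library was far above the highest Cell(+)-TRAP library (log2 fold change 8.0 ± 0.58, adjusted p = 3.20e-09, edgeR). Snhg11 (chromosome 2, 158375638 to 158386145, plus strand), a host transcript of small nucleolar RNAs, stood at 2034, 2083, 3121, and 2126 CPM and at 10.5, 4.06, 9.201, and 6.81 CPM (8.25 ± 0.55, adjusted p = 1.31e-09, edgeR). Kcnq1ot1 (chromosome 7, 143213111 to 143296547, minus strand), the antisense RNA that silences an imprinted cluster, was at 851, 1502, 1343, and 1488 CPM against 78.3, 74.05, 69.5, and 60.8 CPM (4.20 ± 0.19). Neat1 (chromosome 19, 5842302 to 5845478, minus strand), the scaffold of paraspeckles, was at 775, 440.4, 956, and 466 CPM against 48.2, 32.97, 56.3, and 24.9 CPM (4.02 ± 0.38). Malat1 (chromosome 19, 5795690 to 5802671, minus strand), an RNA of nuclear speckles, was at 439, 443, 604, and 509 CPM against 104, 55.6, 92.9, and 87.9 CPM (2.55 ± 0.36). Neat1 and Malat1 are made by most cell types, whereas Meg3 and Miat (7.12 ± 0.39) are chiefly neuronal. Peg13, an imprinted RNA, was the member not called, at 91.1 ± 23.3 and 98.9 ± 6.297 CPM (SD, n = 4).

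Other genes among the 15 with the largest rise, which were taken from called genes without overlap, were Trank1, A930013F10Rik, A330023F24Rik, Ipw, Rian and A930011O12Rik. Each of the 15 was also called higher in Dounce-Input than in Cell(+)-Input, as were 29.0% of all genes tested in Input. As above, the shared suspensions and the choice by size of change make this no independent check. Trank1 (chromosome 9, 111311739 to 111395775, plus strand), a large repeat protein that is on the neuronal list, stood at 473, 702, 554, and 476 CPM in Dounce-TRAP and at 2.55, 0.432, 2.39, and 1.66 CPM in Cell(+)-TRAP (8.28 ± 0.41, adjusted p = 5.33e-11, edgeR). Rian, an imprinted RNA next to Meg3, rose by 7.49 ± 0.45 and Ipw, an imprinted RNA of the Prader-Willi region, by 7.72 ± 0.59 on the log2 scale. For A930013F10Rik (8.05 ± 0.42), a noncoding RNA on the strand of Polb and overlapping it, reads of both genes cannot be told apart. A330023F24Rik (7.90 ± 0.47) and A930011O12Rik (7.45 ± 0.46) are noncoding. Among protein-coding genes, Grik1, a kainate receptor subunit, rose by 7.43 ± 0.45, Sv2c, a synaptic vesicle protein, by 7.32 ± 0.33, and Bcmo1, which cleaves beta-carotene, by 7.89 ± 0.45. Pigr, the receptor that carries polymeric antibodies across epithelia, stood at 150.1, 97.8, 342, and 154 CPM in Dounce-TRAP and at 1.399, 1.04, 0.682, and 1.38 CPM in Cell(+)-TRAP (7.35 ± 0.43, adjusted p = 2.79e-10, edgeR). Rhox8, a homeobox gene of the reproductive tract, was at 29.3, 26.95, 87.6, and 24.4 CPM against 0.329, 0.0863, 0.426, and 0 CPM (7.52 ± 0.66). Gcm1, a transcription factor of the placenta, had 299 counts in Dounce-TRAP and 2 in Cell(+)-TRAP, a ratio of CPM of 468 (95% counting interval 128 to 3884). Gm5415, which lies on the opposite strand within Khdrbs2, had 404 counts against 2, a ratio of 633 (174 to 5241).

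The rise over Cell(+)-TRAP was set beside Tissue-TRAP, in which no suspension was made. Of the 3164 genes higher in Dounce-TRAP than in Cell(+)-TRAP, 1177 were lower than in Tissue-TRAP, 849 were higher and 1138 were not called. Over all genes, 3414 (23.2%) were higher and 3993 (27.1%) were lower in Dounce-TRAP than in Tissue-TRAP. These comparisons share the Dounce-TRAP libraries, so their counts are not independent. Meg3 was at 1096 ± 555 CPM and Pigr at 2.61 ± 1.04 CPM in Tissue-TRAP (SD, n = 4), with log2 differences of Dounce-TRAP minus Tissue-TRAP of 1.95 and 6.16. Snap25 was at 2168 ± 52.4 CPM in Tissue-TRAP, above both preparations.

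Genes of the oligodendrocyte lineage, the cells that make myelin, were also higher in Dounce-TRAP. Of 13 myelin and oligodendrocyte genes 10 were higher (median 1.74), as were 113 of 192 tested oligodendrocytic markers of the study (58.9%, 7 lower). Of 8 genes of their progenitors 7 were higher in edgeR (median 2.0), but limma called only 3 higher. Only 2 of the 8 did not overlap, beside 43.6% of all genes. The levels of these 8 were low, with summed CPM of 58.7 to 108 in Dounce-TRAP and 13.9 to 25.2 in Cell(+)-TRAP. In Input, 9 of the 13 myelin genes were lower in Dounce-Input with TMM scaling (median -1.36), beside 27.9% of all genes tested in Input. This direction turned when Input was scaled to microglial markers (median 0.11, 2 higher and 2 lower). Mog, a glycoprotein of the myelin surface, stood at 41.9, 49.7, 145, and 49.7 CPM in Dounce-TRAP and at 4.77, 3.19, 5.71, and 3.22 CPM in Cell(+)-TRAP, without overlap (log2 fold change 4.06 ± 0.46, adjusted p = 8.37e-07, edgeR). For Mog, mouse 181 was more than 2 times as high as the other Dounce-TRAP libraries. Mag, a myelin adhesion protein, rose by 1.49 ± 0.18 on the log2 scale. Mbp, myelin basic protein, did not pass the fold threshold (332 ± 46.4 against 174 ± 50.1 CPM, SD, n = 4; 0.93 ± 0.31) except when scaled to microglial markers (1.36) or without mouse 1361 at 1.09, mouse 156 at 1.01 or mouse 180 at 1.0. Cnp, a myelin phosphodiesterase, had a negative value (-0.64 ± 0.14) that was not called. Pdgfra, the growth factor receptor of progenitors, was low and overlapped (4.13 ± 3.03 against 1.59 ± 0.414 CPM; 1.32 ± 0.52), and its call was lost without mouse 181 at 0.85.

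Lower oligodendrocytic markers included Sirt2, a deacetylase abundant in myelin, at 118, 106, 78.7, and 98.9 CPM in Dounce-TRAP and 223, 231, 222, and 219 CPM in Cell(+)-TRAP (-1.15 ± 0.11), and Ndrg1, a stress and differentiation gene, at 18.9 ± 7.29 against 84.6 ± 23.7 CPM (SD, n = 4; -2.20 ± 0.29). Scaled to microglial markers, Ndrg1 was still lower (-1.76) and Sirt2 was not called (-0.75).

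Astrocyte genes split. Of 14 astrocyte defining genes 1 was higher and 5 were lower (median -0.54), and of the 138 astrocytic markers of the study 19 were higher and 36 were lower (13.8% and 26.1%), a balance that turned to 26 higher and 21 lower when scaled to microglial markers. Of the defining genes 1 was higher and 2 were lower under that scaling. Slc1a2, the main glutamate transporter of astrocytes, was the defining gene that rose, at 2911, 2289, 1164, and 1636 CPM in Dounce-TRAP and at 639.7, 411, 507, and 484 CPM in Cell(+)-TRAP. The groups did not overlap (1.97 ± 0.24, adjusted p = 2.23e-06, edgeR), while in Input the log2 difference was -1.10 ± 0.23 (adjusted p = 2.63e-04, edgeR) with TMM scaling and 0.37 when scaled to microglial markers. Gja1, the gap junction protein connexin 43, stood at 23.7, 28.2, 14.9, and 22.3 CPM and at 124, 95.8, 152, and 113 CPM (-2.42 ± 0.24, adjusted p = 1.29e-07, edgeR). Aldoc, the aldolase of astrocytes, was lower by a smaller amount (-1.32 ± 0.23, and not called at -0.91 when scaled to microglial markers). Slc1a3, another glutamate transporter (-0.42 ± 0.13), Aqp4, the water channel of astrocyte endfeet (-0.49 ± 0.21), and Aldh1l1, a folate enzyme (-0.72 ± 0.21), were not called. The astrocytic marker with the largest rise was Pax6, a transcription factor that cerebellar granule cells also make, at 48.8, 44.7, 92.5, and 99.4 CPM in Dounce-TRAP and at 2.96, 2.24, 3.41, and 3.497 CPM in Cell(+)-TRAP (4.55 ± 0.29, adjusted p = 8.61e-10, edgeR).

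Genes of blood cells were higher in Dounce-TRAP. Of 8 tested blood cell genes 7 were higher and 1 was lower (median 2.21). Hba-a1, an alpha globin, stood at 413, 241, 223, and 161 CPM in Dounce-TRAP and at 39.8, 43.5, 102, and 55.4 CPM in Cell(+)-TRAP (2.11 ± 0.47, adjusted p = 0.00106, edgeR). Cell(-)-TRAP, from the mice of Cell(+)-TRAP, held 187 ± 184 CPM (SD, n = 4). The globin genes are near-identical copies, so how reads were split among Hba-a1, Hba-a2, Hbb-b1 and Beta-s is uncertain. Ly6c2, a surface protein of monocytes, was the blood gene that was lower, at 1 CPM or less in every Dounce-TRAP library against 2.39, 1.47, 2.73, and 0.552 CPM, with overlap.

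Genes of border macrophages, cells which line the meninges and vessels and carry the tag as well, gave few calls. Of 12 of their genes 1 was called (median 0.16). Mrc1, the mannose receptor, stood at 774, 1065, 541, and 433 CPM in Dounce-TRAP and at 414, 569.9, 459, and 537 CPM in Cell(+)-TRAP, with overlap (0.51 ± 0.26, adjusted p = 0.106, edgeR). Cd163, a hemoglobin scavenger receptor (0.15 ± 0.24), Lyve1, a hyaluronan receptor (-0.22 ± 0.30), and Pf4, a chemokine (0.28 ± 0.26), overlapped too. Siglec1, a sialic acid receptor, was lower, at 15.2, 26.2, 17.2, and 22.03 CPM against 31.9, 67.1, 31.6, and 38.2 CPM (-1.06 ± 0.38, adjusted p = 0.0273, edgeR), but was not called when scaled to microglial markers (-0.65) or without mouse 1362 at -0.74, mouse 179 at -0.94 or mouse 181 at -0.99. The macrophage list of the study, which also holds genes of other cells, had 32 of 158 genes higher and 32 lower (20.3% each), with a median of -0.14 that became 0.28 when scaled to microglial markers, where 43 were higher and 20 were lower. F10, coagulation factor X, was among its higher genes (60.5 ± 15.2 against 0.579 ± 0.432 CPM, SD, n = 4; 6.66 ± 0.45).

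Immediate-early genes, the first to answer a stimulus, were low after both preparations beside the enzymatic suspension without inhibitors. Against Cell(-)-TRAP, 31 of 37 immediate-early genes were lower in Dounce-TRAP (median -3.50, with 8.02% of all genes lower) and 29 in Cell(+)-TRAP (median -3.04, with 0.632% of all genes lower). Both comparisons use the same Cell(-)-TRAP libraries, and the mice of Cell(-)-TRAP are those of Cell(+)-TRAP. Between the preparations themselves, 5 of the 37 were higher and 6 were lower in Dounce-TRAP, with a median of -0.24 that became 0.20 when scaled to microglial markers. Egr1, a zinc finger immediate-early factor, stood at 17.6, 25.8, 19.02, and 18.2 CPM in Dounce-TRAP and at 16.6, 30.4, 22.2, and 24.3 CPM in Cell(+)-TRAP, against 2921 ± 933 CPM (SD, n = 4) in Cell(-)-TRAP. The groups overlapped (-0.20 ± 0.26, adjusted p = 0.5402, edgeR). Fos, the partner of Jun in the factor AP-1, stood at 9.33, 6.79, 16.03, and 2.98 CPM and at 12.7, 23.6, 17.6, and 22.5 CPM, against 4720.2 ± 1368 CPM in Cell(-)-TRAP. Fos was called lower in Dounce-TRAP (-1.18 ± 0.37, adjusted p = 0.0114, edgeR), although mouse 181 reached into the range of Cell(+)-TRAP. Jun was at 89.3, 72.5, 75.7, and 80.4 CPM against 119, 109, 120.5, and 126 CPM, apart but short of the fold threshold (-0.58 ± 0.15). Fos was not called without mouse 182 at -0.91.

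The immediate-early genes that separated the preparations went both ways. Zfp36, which destroys cytokine messages, stood at 86.4, 56.5, 60.03, and 79.2 CPM in Dounce-TRAP and at 131, 173, 135, and 131 CPM in Cell(+)-TRAP (-1.02 ± 0.16, adjusted p = 3.43e-05, edgeR). Klf2, a transcription factor of quiescence in endothelial and immune cells, stood at 26.1, 39.3, 28.3, and 21.4 CPM and at 84.8, 68.2, 106, and 96.6 CPM (-1.61 ± 0.20, adjusted p = 2.65e-06, edgeR). Maff, a small Maf factor, was near 0 in Dounce-TRAP (0.748 ± 1.13 against 10.4 ± 2.71 CPM, SD, n = 4; -3.52 ± 0.64), Dusp1, a MAP kinase phosphatase, was lower (-1.14 ± 0.25), and Klf4, a Kruppel-like factor, was lower with overlap (-1.03 ± 0.44). When scaled to microglial markers, Klf2 (-1.20) and Maff (-3.13) were still lower, and Fos (-0.74), Zfp36 (-0.61), Dusp1 (-0.70) and Klf4 (-0.57) were not called. On leaving out 1 library the call was lost for Zfp36 (without mouse 1362 at -0.91, mouse 180 at -0.92 or mouse 181 at -0.95), Dusp1 (without mouse 180 at -0.98 or mouse 182 at -0.92) and Klf4 (without mouse 156 at -0.87, mouse 179 at -0.76 or mouse 182 at -0.71). The 5 higher genes were Nr4a1, Nr4a2, Dusp5, Arc and Npas4. Arc, a synaptic activity gene of neurons, stood at 11.5, 14.6, 19.8, and 15.5 CPM in Dounce-TRAP and at 1.97, 1.38, 1.36, and 2.94 CPM in Cell(+)-TRAP (2.98 ± 0.38, adjusted p = 3.10e-06, edgeR). Npas4, an activity-dependent factor of neurons, was at 8.8, 7.59, 9.69, and 7.74 CPM against 0.411, 0.345, 0.511, and 0.828 CPM (3.98 ± 0.45, adjusted p = 7.12e-07, edgeR). Nr4a1, a nuclear receptor induced in many cells, was at 35.5, 30.5, 35.8, and 30.7 CPM against 9.38, 9.84, 14.1, and 17.9 CPM (1.37 ± 0.40, adjusted p = 0.00724, edgeR), with 455 ± 334 CPM (SD, n = 4) in Cell(-)-TRAP. Nr4a2, its relative (1.42 ± 0.44, with overlap), and Dusp5, another MAP kinase phosphatase (2.56 ± 0.53), made up the rest. The neuronal defining genes above rose in the same Dounce-TRAP libraries, and their part in these 5 genes was not tested.

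**Figure D3:**
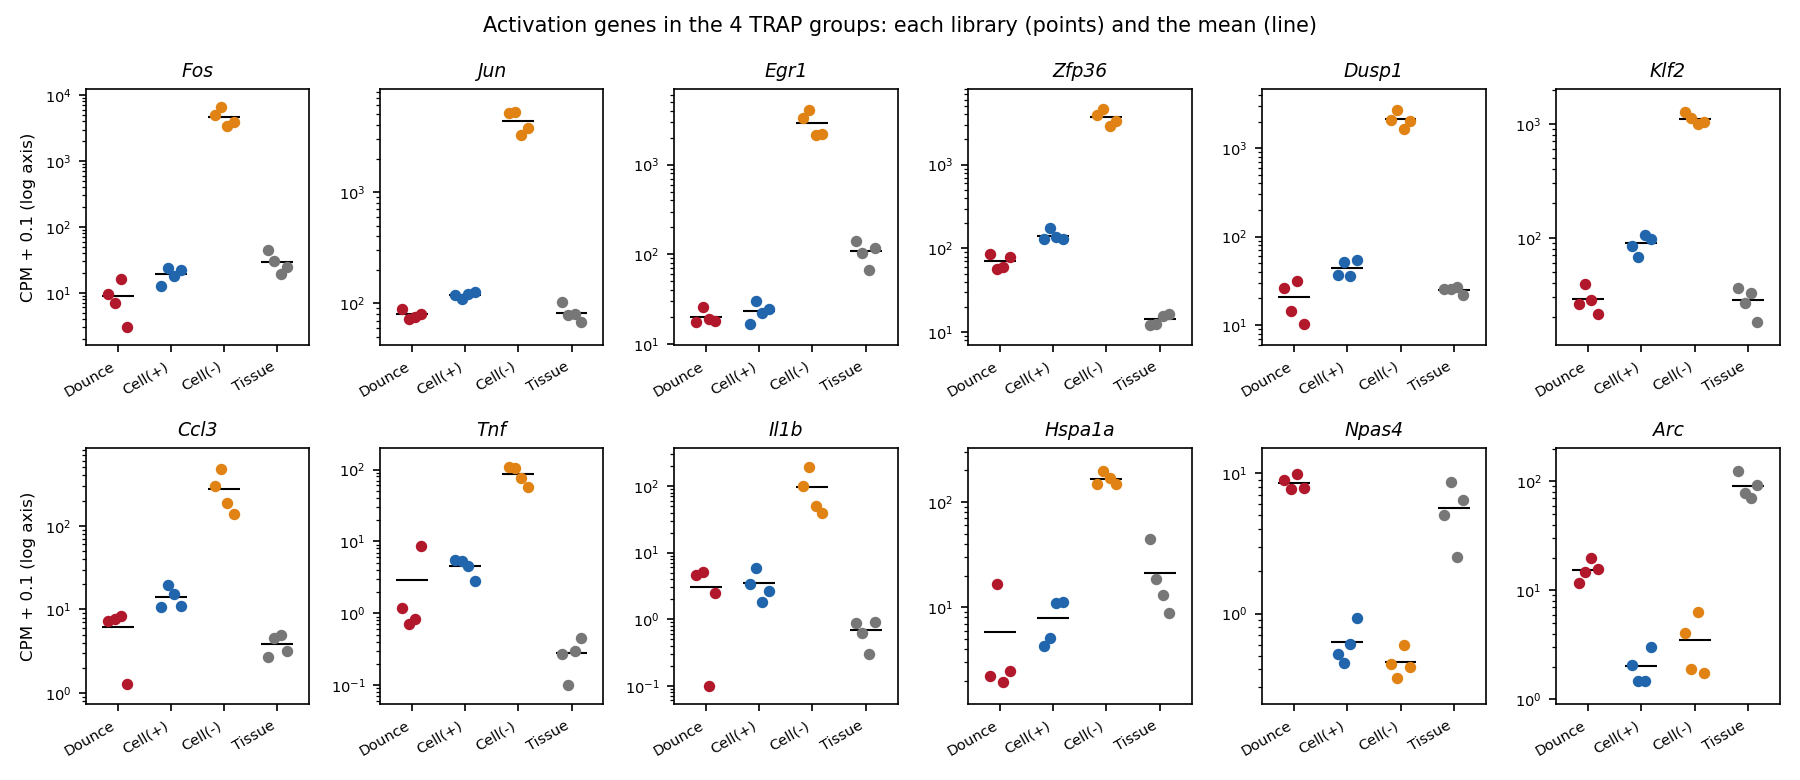
CPM plus 0.1 of 12 activation genes in each library of the 4 TRAP groups (points, log axis) with the group mean (line, n = 4). Egr1, Fos and Ccl3 are higher in all 4 Cell(-)-TRAP libraries than in any Dounce-TRAP or Cell(+)-TRAP library, and Arc and Npas4 are higher in Dounce-TRAP than in Cell(+)-TRAP.

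Cytokines and chemokines, the messengers of activated microglia, gave 1 call in each direction between the preparations. Of 17, 1 was higher and 1 was lower (median -0.29, or 0.12 when scaled to microglial markers). Against Cell(-)-TRAP, 13 were lower in Dounce-TRAP and 10 in Cell(+)-TRAP. Ccl3, a chemokine that draws in leukocytes, stood at 7.2, 7.59, 8.203, and 1.19 CPM in Dounce-TRAP and at 10.5, 19.7, 15.2, and 10.95 CPM in Cell(+)-TRAP, against 275 ± 152 CPM (SD, n = 4) in Cell(-)-TRAP. It was the gene called lower (-1.21 ± 0.45, adjusted p = 0.0292, edgeR), a call lost when scaled to microglial markers (-0.80) and without mouse 182 at -0.89. Ccl4, its close relative (7.67 ± 4.19 against 8.79 ± 1.81 CPM), Tnf (2.76 ± 3.92 against 4.45 ± 1.24 CPM) and Il1b, which encodes interleukin-1 beta (2.98 ± 2.29 against 3.36 ± 1.79 CPM, all SD, n = 4), overlapped between the groups. Tnf was called lower without mouse 182 at -2.48, its highest Dounce-TRAP library. Il10, an anti-inflammatory cytokine, was called higher on 13 counts, all in the library of mouse 179, against 2 counts in Cell(+)-TRAP, a ratio of 20.4 (95% counting interval 4.61 to 186). The other 3 Dounce-TRAP libraries had 0 counts of Il10, and without mouse 179 it was not called.

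Other stress programs gave few calls between the preparations. Of 17 NF-kB feedback genes 1 was lower (median -0.47, or -0.07 when scaled to microglial markers), Bcl3, a nuclear partner of NF-kB, at 2.25 ± 1.58 against 6.97 ± 1.31 CPM (SD, n = 4; -1.64 ± 0.43). Nfkbia, the inhibitor that NF-kB induces, was at 121, 106, 133, and 138 CPM in Dounce-TRAP and at 123, 154, 141, and 137 CPM in Cell(+)-TRAP, with overlap (-0.16 ± 0.17), against 660.2 ± 159.7 CPM in Cell(-)-TRAP. Of 18 heat shock genes 1 was lower (median -0.35, or 0.061 when scaled to microglial markers), Hspb1, a small chaperone also made by vessels, at 1.07, 0.399, 0, and 1.79 CPM against 30.4, 19.7, 36.9, and 23.8 CPM (-5.07 ± 0.53). Hspa1a, the inducible chaperone HSP70, overlapped (5.69 ± 7.13 against 7.81 ± 3.72 CPM) and was called lower without mouse 180 at -1.86. Its constitutive relative Hspa8 was at 804, 1052, 689, and 687 CPM against 1285, 1443, 1453, and 1439 CPM, apart but not called (-0.80 ± 0.13). None of 17 genes of the unfolded protein and integrated stress response passed in edgeR, with 4 higher and 6 lower at an unadjusted p under 0.05. DESeq2 called 1 of them lower and limma 3, and the median was -0.15 (0.27 when scaled to microglial markers).

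Targets of p53, which answers DNA damage, were 2 higher and 3 lower of 11. Mdm2, the ligase that degrades p53, stood at 165, 109, 188, and 126 CPM in Dounce-TRAP and at 61.1, 62.1, 50.3, and 53.4 CPM in Cell(+)-TRAP (1.37 ± 0.14, adjusted p = 2.65e-07, edgeR). Cdkn1a, the cell cycle inhibitor p21, went the other way, at 9.6, 17.4, 20.5, and 17.3 CPM against 48.5, 50.6, 52.6, and 53.2 CPM (-1.67 ± 0.22, adjusted p = 5.63e-06, edgeR). Ccng1, cyclin G1, was lower as well (-1.37 ± 0.22), and was not called when scaled to microglial markers (-0.96). Gdf15, a stress hormone called lower, had 0 counts in Dounce-TRAP and 30 in Cell(+)-TRAP, too few for a fold, and was not called without mouse 1362.

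Genes of disease-associated microglia, a state found around amyloid plaques, were 1 higher and 4 lower of 18 (median -0.35), and 1 higher and 3 lower when scaled to microglial markers (median 0.067). Itgax, the integrin CD11c, stood at 16, 29.5, 15.3, and 15.2 CPM in Dounce-TRAP and at 55.8, 70.3, 63.98, and 38.4 CPM in Cell(+)-TRAP (-1.56 ± 0.27, adjusted p = 1.03e-04, edgeR). Spp1, the secreted glycoprotein osteopontin, was at 6.93, 5.59, 20.1, and 5.06 CPM against 20.1, 51.6, 59.1, and 21.1 CPM (-2.09 ± 0.53, adjusted p = 0.00278, edgeR), mouse 181 reaching the Cell(+)-TRAP range. Gpnmb, a glycoprotein of lipid-laden phagocytes, was called lower on 1 library, mouse 1362 of Cell(+)-TRAP at 63.1 CPM, the others of that group lying between 1.45 and 2.22 CPM, and without mouse 1362 at -0.79 it was not called. Lgals3, galectin 3, was highest in the same library and overlapped (-1.25 ± 0.59), and its call was lost without mouse 1362 at -0.68, mouse 179 at -1.12, mouse 180 at -0.92 or mouse 181 at -1.29. Lpl, lipoprotein lipase, rose, at 301, 151, 275, and 189 CPM in Dounce-TRAP and 41.8, 149, 79.2, and 51.7 CPM in Cell(+)-TRAP, where mouse 1362 nearly met mouse 180 of Dounce-TRAP (1.51 ± 0.42, adjusted p = 0.00525, edgeR). In Input, Lpl was at 702 ± 316 CPM in Dounce-Input and 27.4 ± 12.3 CPM in Cell(+)-Input (SD, n = 4). Its level in Dounce-Input was thus above that in Dounce-TRAP, and which cells its rise in TRAP comes from was not tested. Apoe, the lipid carrier, overlapped (5642 ± 601 against 4805 ± 851 CPM, SD, n = 4).

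Interferon-stimulated genes, the antiviral program, were 1 higher and 4 lower of 18 (median -0.58), and 2 higher and 2 lower when scaled to microglial markers (median -0.17). Ifitm3, a membrane protein that blocks virus entry, stood at 16.3, 18.4, 22.4, and 20.2 CPM in Dounce-TRAP and at 59.4, 66.1, 52.9, and 42.3 CPM in Cell(+)-TRAP (-1.52 ± 0.22, adjusted p = 1.14e-05, edgeR). Irf7, a regulator of interferon genes (-1.33 ± 0.41), Mx1, an antiviral GTPase (-1.57 ± 0.47), and Usp18, which trims the response (-1.04 ± 0.50), were lower, the last 2 with overlap. Irf7 (-0.93) and Usp18 (-0.60) were not called when scaled to microglial markers. Mouse 1362 was the highest Cell(+)-TRAP library for all 4. Ifit1, which binds viral RNA, was higher instead, at 16.8, 15.6, 34.7, and 19.7 CPM against 11.4, 10.6, 9.12, and 8.01 CPM (1.13 ± 0.36, adjusted p = 0.0126, edgeR). The calls lost on leaving out 1 library were Irf7 (without mouse 1362 at -0.98), Usp18 (without mouse 1361 at -0.94, mouse 1362 at -0.77, mouse 156 at -1.09, mouse 179 at -0.67 or mouse 180 at -0.98) and Ifit1 (without mouse 181 at 0.82).

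Messages of the translation machinery took a smaller share of Dounce-TRAP. Of 81 cytosolic ribosomal protein genes 55 were lower, with a median of -1.17, and 76 did not overlap, beside 43.6% of all genes. When scaled to microglial markers, 14 were lower and the median was -0.75. The summed CPM of the list ran from 6091.8 to 7111 in Dounce-TRAP and from 13702 to 15843 in Cell(+)-TRAP. Rpl4, of the large subunit, stood at 289.9, 271, 286, and 268 CPM in Dounce-TRAP and at 570.5, 598, 600.0, and 635 CPM in Cell(+)-TRAP (-1.11 ± 0.085, adjusted p = 6.50e-09, edgeR). Rps9, of the small subunit, stood at 209, 174, 176, and 160.5 CPM and at 487, 511, 529.9, and 568 CPM (-1.54 ± 0.12, adjusted p = 7.18e-09, edgeR) and was still lower when scaled to microglial markers (-1.13), while Rpl4 was not called there (-0.69). Reads of ribosomal protein genes can also fall on their many processed pseudogenes, so their counts are less certain than most. Rpl10a, the ribosomal protein to which the tag is fused, was at 169.9 ± 20.9 against 318 ± 15.3 CPM (SD, n = 4; -0.90 ± 0.12). Reads of the tag and of the native gene are not separated in these counts.

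Translation factors were 1 higher and 8 lower of 22 (median -0.79). Eef1a1, which brings transfer RNAs to the ribosome, stood at 1266, 1213, 1135, and 1169.5 CPM in Dounce-TRAP and at 2479, 2684, 2661, and 2766 CPM in Cell(+)-TRAP (-1.15 ± 0.084, adjusted p = 3.96e-09, edgeR). Its relative Eef1a2, the form of neurons and muscle, was the one that rose, at 73.3, 56.9, 135, and 50.02 CPM against 31.5, 9.23, 21.98, and 32.8 CPM (1.71 ± 0.37, adjusted p = 7.15e-04, edgeR). The glycolytic genes showed the same kind of pair. Of 18, 8 were lower and 3 were higher (median -0.84), and 17 did not overlap, beside 43.6% of all genes. Pkm, pyruvate kinase, was at 414, 377, 361, and 379.6 CPM against 822, 739, 810.2, and 779.6 CPM (-1.04 ± 0.083). The higher ones were Eno2, the neuronal enolase, at 65.9, 47.9, 108, and 56.6 CPM against 15.6, 6.13, 16.6, and 18.96 CPM (2.27 ± 0.33), Pfkp, a phosphofructokinase (2.26 ± 0.16), and Slc2a3, the neuronal glucose transporter (1.43 ± 0.19). When scaled to microglial markers, the medians were -0.43 for the glycolytic genes and -0.37 for the translation factors, of which 1 was lower. None of the glycolytic genes was called lower there, Pkm being at -0.62, and 3 were higher.

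Of 80 nuclear genes of oxidative phosphorylation, which encode the respiratory chain and ATP synthase, 15 were lower (median -0.62), and 2 were lower when scaled to microglial markers. Atp5a1, a subunit of ATP synthase, was at 305, 286, 249, and 336 CPM in Dounce-TRAP and at 588, 581, 609.6, and 618 CPM in Cell(+)-TRAP (-1.03 ± 0.09, adjusted p = 3.46e-08, edgeR), just past the fold threshold, and was not called without mouse 181 at -0.96. The transcripts of these short genes and of the ribosomal proteins have median lengths of 1025.5 and 1106 bases, against 3449 bases over all genes with a length. Over all genes the median log2 fold change was -0.24 in the bin of shortest transcripts, and -0.072, 0.034 and 0.17 in the following of 4 bins of equal size. Within the microglial markers the medians of the same bins were -0.45, -0.41, -0.46 and -0.42. The part of transcript length and of RNA integrity in these lists was not tested.

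Calls in further programs were mixed. Of 16 host genes of small nucleolar RNAs, 7 were higher and 2 were lower (median 0.92). Gas5, a spliced noncoding host, was at 49.6, 38.1, 54.4, and 46.4 CPM in Dounce-TRAP and at 15.6, 15.5, 20.4, and 18.1 CPM in Cell(+)-TRAP (1.43 ± 0.16, adjusted p = 5.31e-07, edgeR). Snhg12 was lower (4.94 ± 0.8699 against 10.8 ± 1.39 CPM, SD, n = 4; -1.11 ± 0.24), a call lost when scaled to microglial markers (-0.70). Of 12 SR splicing factors 2 were higher (median 0.44), with Srsf11 at 231, 249, 309, and 258 CPM against 108, 114, 137, and 122 CPM (1.12 ± 0.12, adjusted p = 5.62e-07, edgeR). Of 20 cholesterol synthesis genes 1 was higher (median -0.012, or 0.40 when scaled to microglial markers).

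**Figure D4:**
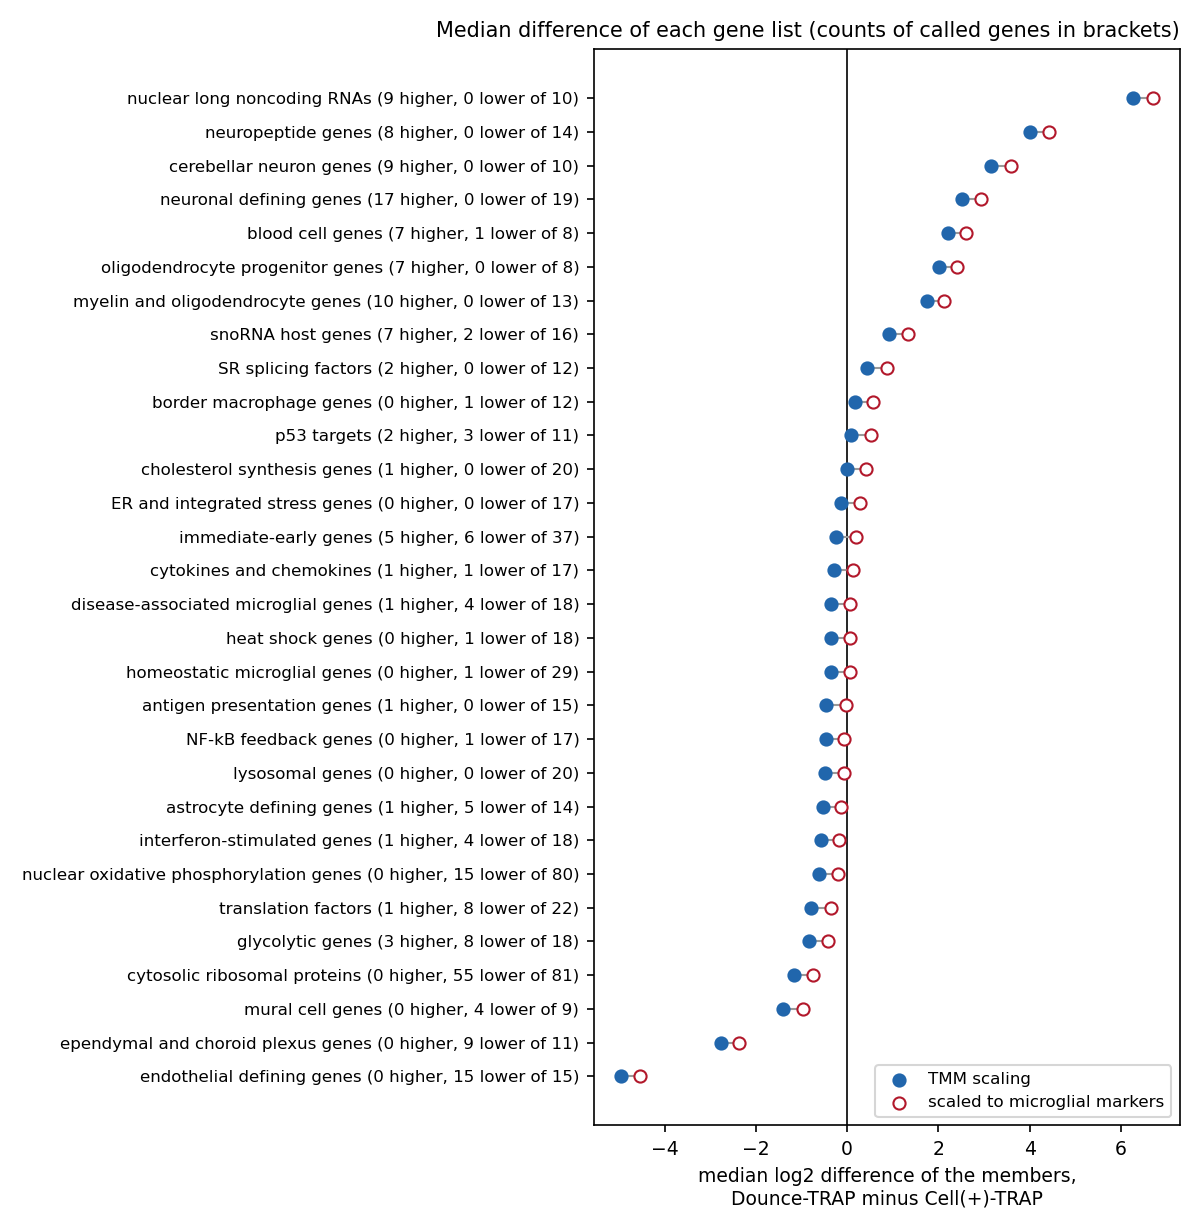
Median log2 difference, Dounce-TRAP minus Cell(+)-TRAP, of each gene list other than the marker lists of the study under TMM scaling (filled) and scaled to microglial markers (open), with the number of members called higher and lower beside each name. Nuclear noncoding RNAs and neuronal lists lie to the right of 0, endothelial, choroid plexus and ribosomal lists to the left, and homeostatic and immediate-early genes change sign between the scalings.

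The Input libraries of the same 8 mice show the suspensions before the pull-down. Between Dounce-Input and Cell(+)-Input, 4566 genes (29.0% of 15753) were higher and 4391 (27.9%) were lower. The neuronal defining genes had a median of 2.11 in Input and 2.51 in TRAP, the endothelial defining genes -5.75 and -4.97, and the nuclear noncoding RNAs 5.21 and 6.26. For the lysosomal genes the medians were -1.62 in Input and -0.49 in TRAP, and for the ribosomal protein genes -1.59 and -1.17. Scaled to microglial markers, the same Input medians were 3.60 for neuronal, -4.21 for endothelial, 6.74 for nuclear noncoding, -0.082 for lysosomal and -0.064 for ribosomal protein genes. In the test of the difference between the TRAP and the Input difference (edgeR), 4916 genes (31.7%) were higher and 823 (5.30%) were lower in TRAP. These counts rest on how the fractions are scaled to each other: with libraries scaled to microglial markers they were 595 and 5773, and without mouse 181 of Dounce they were 1988 and 2506, so no direction is read from them.

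**Figure D5:**
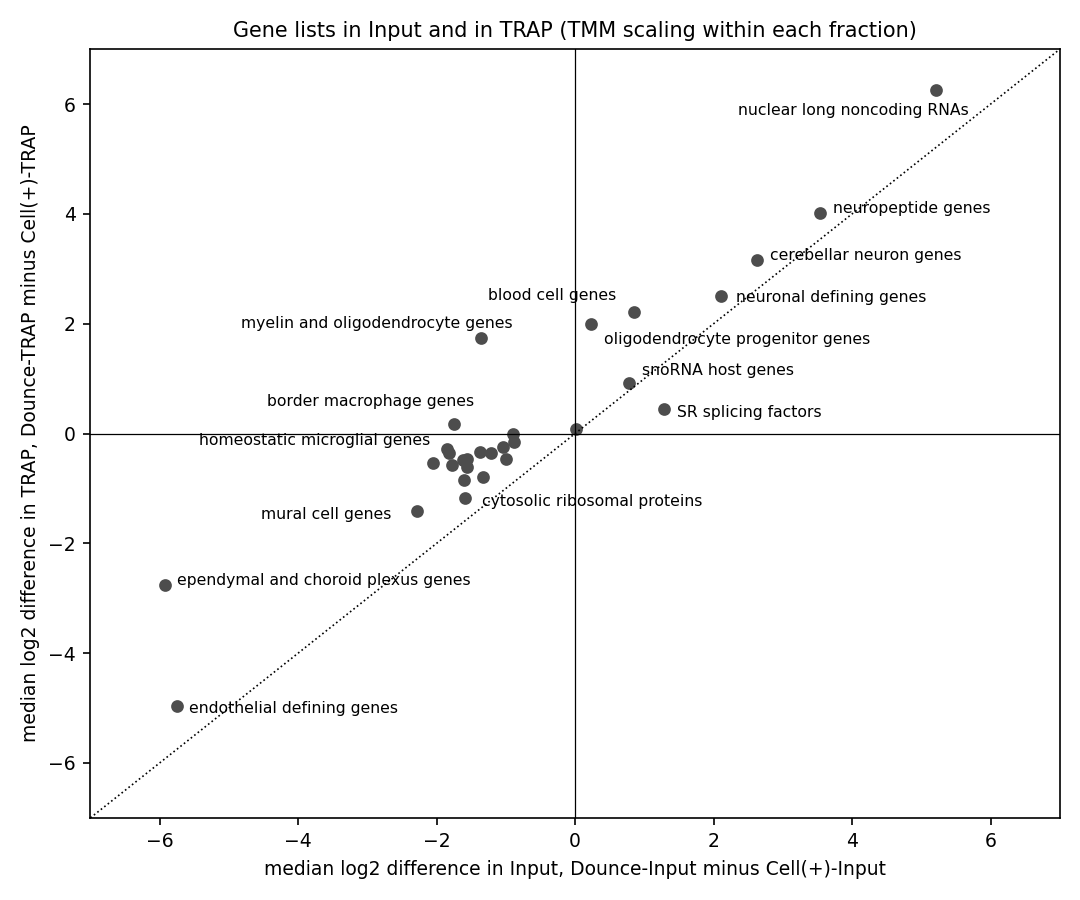
Median log2 difference of each gene list other than the marker lists of the study in TRAP (vertical) against Input (horizontal), Dounce minus Cell(+), with TMM scaling within each fraction and a dotted line of equal values. The nuclear long noncoding RNAs lie at the top right, the endothelial defining genes at the bottom left, and among the lists drawn the myelin and oligodendrocyte genes and the border macrophage genes are below 0 in Input and above 0 in TRAP.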

How the data were processed

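RNA was sequenced from polyadenylated, stranded libraries of 4 mice per group, without pooling. The authors trimmed reads, aligned them to mm10 in Strand NGS, removed duplicates and deposited expected counts per gene (mostly not whole, here rounded) and log2 values normalized with DESeq2, as the study's methods and the submitters' processing notes say. Duplicate removal lowers the counts of abundant genes most. The 4 TRAP groups of the cell preparation experiment, 16 libraries, were fitted together with edgeR 4.0.16 in R 4.3.3 (TMM scaling, quasi-likelihood test, Benjamini-Hochberg adjustment). Genes with more than 5 counts in every library of at least 1 group were kept, and calls needed an adjusted p under 0.1 and a fold above 2. Input libraries and the interaction of TRAP and Input were fitted in the same way. The standard error was derived from the fold change and the F statistic. DESeq2 1.42.0 and limma 3.58.1, the latter on the deposited log2 values, served as alternatives, with those named in the closing section.

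Per direction, the 15 called genes with the largest change, no overlap and at least 20 CPM in the higher group were named. For each list, the 4 most abundant members and the members called against its median were eligible. Other genes named were chosen after their values were seen. The members and lists were chosen with earlier results of these data known. Marker lists of microglia, astrocytes, oligodendrocytes, neurons, endothelium and macrophages are those of the study. Beta-s stands for Hbb-bs and was matched by its older name. Xbp1, Map2, Acta2 and Myrf were not analysed here, and some members of the lists are not reported here. Coordinates are as the deposited table gives them, on mm10. Replicates of a group were separate mice. The p-values set a difference between groups against the spread of libraries within groups, estimated over all groups of the fit. Cell(-)-TRAP and Cell(+)-TRAP came from the same 4 mice, which the fit does not use. The mouse gave both a TRAP and an Input library, and the correlation of their deviations was 0.014 to 0.32, not above 0.1 in every mouse. The earlier table of the experiment and that of the sorting experiment were not used.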

Additional observations from a re-analysis of the deposited data

Results flagged for a closer look

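In groups of 4 libraries, a lone library was set apart where its gap to the nearest other library, divided by the range of the group, was above Dixon's 95% critical value of 0.829. This held for 38 of 378 groups tested (10.1%), while chance gives about 1 in 20 for independent values with a normal spread. The groups share the same libraries and some values lie at or near 0, so no excess over chance is read from this share. In Dounce-TRAP the gap ratios were 0.854 for Gm5415, 0.916 for Snhg11, 0.922 for Rhox8, 1 for Tie1, 1 for Eltd1, 1 for Apcdd1, 0.903 for Ly6c1, 0.886 for Sema3g, 0.848 for Podxl, 1 for Tm4sf1, 0.867 for Csf1r, 0.829 for Dusp5, 1 for Il10, 0.846 for Cbln3, 0.878 for Cbln1, 0.855 for Cck, 0.924 for Mog, 0.840 for Lag3, 0.857 for Ccl3, 0.942 for Tnf, 0.964 for Hspa1a, 0.943 for Itgax and 0.876 for Spp1. For summed levels of lists in Dounce-TRAP they were 0.832 for the heat shock genes, 0.834 for the cerebellar neuron genes and 0.845 for the mural cell genes. In Cell(+)-TRAP the gap ratios were 1 for Gm5415, 1 for Il10, 0.920 for Hspa8, 0.880 for Gdf15, 0.837 for Rgs5, 0.952 for Tmem119, 0.917 for Neurod1, 0.842 for Aqp4, 0.892 for Aldh1l1, 0.898 for Zfp36 and 0.987 for Gpnmb. For summed levels of lists in Cell(+)-TRAP they were 0.832 for the lysosomal genes. A ratio of 1 means that the other 3 libraries were equal, mostly at 0 counts. For Slc1a2, the difference between the preparations in TRAP exceeded that in Input by 3.43 on the log2 scale (interaction test, edgeR), with opposite signs in the TMM-scaled fractions. TRAP and Input libraries were scaled together for this test and within each fraction for the single differences, so the values do not subtract exactly. The sign in Input turned when libraries were scaled to microglial markers, where the interaction was 2.00, and it was 2.75 without mouse 181 of Dounce.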

How the results depend on the processing

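The number of genes called between Dounce-TRAP and Cell(+)-TRAP was 4287 and stayed within 1.5 times that under each alternative except the strict filter of at least 10 counts in every library, which tests 10308 genes and left 1962 calls (1645 higher and 317 lower, 83.8% higher). Leaving out each library in turn gave 4191 to 4501 calls. For Input it gave 8828 to 9088 and for the interaction 4494 to 5716, where the share of higher genes turned without mouse 181. With the mouse as a replicate block, the interaction gave 5377 calls in place of 5739. In Cell(+)-TRAP against Cell(-)-TRAP 93 genes were lower, and in a fit of these 8 libraries alone, chosen after seeing the data, 135 were lower with the mouse as a replicate block and 109 without it (29 immediate-early genes in each). Scaling Input to microglial markers turned 4566 higher and 4391 lower genes into 9568 and 893. DESeq2 size factors gave 3534 higher and 1408 lower genes in the interaction. The median of the macrophage markers turned to 0.28 when scaled to microglial markers and to 0.27 under the strict filter, that of the immediate-early genes to 0.20 and that of the endoplasmic reticulum and integrated stress genes to 0.27, both when scaled to microglial markers. That scaling also moved medians from below to above 0 for homeostatic (0.07), heat shock (0.061) and disease-associated genes (0.067). The same held for cytokines and chemokines (0.12) and for cholesterol synthesis genes (0.40). Leaving out each library in turn, the fitted value of Il10, which rests on few counts, ran from -2.15 without mouse 179 of Dounce-TRAP to 6.09 without mouse 156 of Cell(+)-TRAP. Of 2502 comparisons of 151 named genes with an alternative, 2398 kept their direction and call, 94 lost the call, 9 gained it and 1 changed sign. Dounce-TRAP had the fewest counts, and with every library thinned to 2471428 counts 3580 genes were called.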

Other observations

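The table classes genes by type, and the types differed between Dounce-TRAP and Cell(+)-TRAP. Of 14052 protein-coding genes, 20.3% were higher and 7.72% were lower in Dounce-TRAP, with a median log2 fold change of -0.026. Of 561 genes classed as miscRNA, which holds most noncoding RNAs, 49.9% were higher and 4.63% were lower (median 1.24). Of 109 pseudogenes, 33.9% were higher and 11.01% were lower (median 0.57). Among all genes with a length, 14.9% of the shortest bin and 25.7% of the longest bin were higher, against 12.7% and 5.26% lower.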
